A study of Homo sapiens with 4 samples.

Results

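The miRNAs hsa-miR-132 and hsa-miR-212 are the guide strands of a pair of neighbouring hairpins, and were followed through small RNA libraries of hepatoma cells and hepatic cancer stem cells (HCSCs). They are 2 of the 1733 mature miRNAs that were counted, taken by their names as in miRBase release 17. The pair was selected on read counts of these same libraries that were already known, so its levels are described here without any test. Libraries were made from Hep3B and Huh7, established human hepatoma lines (HCC cells), and from the stem-like cells that the authors cultured from each, Hep3B-C and Huh7-C. None of the 4 populations carries a labelled gene change, treatment or time point, the labels do not describe the stem cell culture, and each population was measured in 1 library (no replicates). Every difference below is therefore one between 2 libraries, and all intervals cover counting error only. They may be too narrow even for that, since PCR reads are not independent molecules.

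Both miRNAs are cut from a single primary transcript. Transcription of this locus is known to be induced by CREB, the transcription factor that answers cyclic AMP and calcium signals, and the pair is best known from neurons, where miR-132 promotes the growth of dendrites. MiRNAs find their targets mainly through the seed, the bases near the 5′ end of the guide strand, so guides with the same seed have largely shared predicted targets.

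The guide sequences are printed 5′ to 3′ because the shared seed is what makes the pair a family; capitals mark the seed (bases 2 to 8), and the sequences were taken from RefSeq (GRCh38.p14).
hsa-miR-132: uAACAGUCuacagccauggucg
hsa-miR-212: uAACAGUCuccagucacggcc
The seed AACAGUC was found in these 2 of the 2370 human mature miRNAs of the RefSeq table and in no other. Aligned from the 5′ end, the first 9 bases were the same, and 17 of the 21 compared bases (81.0%) matched. Counted from 1 at the 5′ end of hsa-miR-132, the substitutions from hsa-miR-132 to hsa-miR-212 were A10C, C14U, U17C and U20C. Of these 4 differences, 3 lie within the first 18 bases, the shortest read length that was kept, so a read that begins at the first base of either guide tells them apart.

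Both hairpins lie on the minus strand of chromosome 17. MIR132 spans 2049908 to 2050008 and MIR212 spans 2050271 to 2050380 (GRCh38), with 262 bases between them. In GENCODE release 29 neither hairpin overlaps another gene, and the nearest protein-coding gene is HIC1, which encodes a transcriptional repressor, 3774 bases away. The hairpins are shown with the guide strand in capitals, to place each guide on the 3′ arm.
MIR132: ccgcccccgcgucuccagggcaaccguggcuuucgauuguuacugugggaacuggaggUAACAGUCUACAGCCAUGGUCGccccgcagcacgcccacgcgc
MIR212: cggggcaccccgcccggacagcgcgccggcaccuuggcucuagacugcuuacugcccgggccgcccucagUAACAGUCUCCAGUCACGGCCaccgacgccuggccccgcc
The opposite arm of MIR132 was counted as hsa-miR-132*, which occupies bases 23 to 44 of the hairpin, whereas the guide occupies bases 59 to 80.
hsa-miR-132*: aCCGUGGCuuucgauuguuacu
Its seed (capitals) differs from that of the guides. The opposite arm of MIR212 was not analysed here.

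The libraries held between 1739278 (Hep3B) and 5741567 (Huh7) miRNA counts. Hep3B stood apart, since miRNA counts made up 10.4% of its total reads, against 35.2% for Hep3B-C, 54.1% for Huh7 and 37.8% for Huh7-C. For this reason ratios of the guides and summed levels of lists are given both in TPM, the study's unit (counts per 1000000 total reads of the library), and in CPM (counts per 1000000 miRNA counts of the library). Going from the first scale to the second moves every log2 ratio by the same amount, by -1.76 for Hep3B-C over Hep3B, 0.52 for Huh7-C over Huh7, -2.38 between the HCC lines and -0.10 between the HCSC lines. The smallest level considered, 3 counts, equalled 0.179 TPM for Hep3B, 0.194 TPM for Hep3B-C, 0.282 TPM for Huh7 and 0.280 TPM for Huh7-C. Of the hepatocyte miRNAs listed as markers (hsa-miR-122, hsa-miR-122*, hsa-miR-192, hsa-miR-194 and hsa-miR-885-5p), at least 4 of 5 were found in every library. Their summed level was highest in Huh7 on both scales (115662 TPM and 213983 CPM) and lowest in Hep3B in TPM (11008) but in Hep3B-C in CPM (100942, against 106219 for Hep3B). In Hep3B nearly all of it was hsa-miR-192, since hsa-miR-122, the main miRNA of hepatocytes, had 397 counts there, whereas Huh7 had 489443, Hep3B-C 149892 and Huh7-C 144814. Hsa-miR-885-5p, named after its values were seen, ran the other way, with 186, 159, 2 and 0 counts in the order Hep3B, Hep3B-C, Huh7 and Huh7-C.

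Hsa-miR-132 was found in all 4 libraries and had the highest count in each among the products of the locus that were analysed. Hep3B had 5 counts and Hep3B-C 40, whereas Huh7 had 70 and Huh7-C 104. These counts correspond to 0.298 TPM for Hep3B (95% exact Poisson interval 0.0967 to 0.695) and 2.59 TPM for Hep3B-C (1.85 to 3.53). For Huh7 they correspond to 6.59 TPM (5.14 to 8.33) and for Huh7-C to 9.71 TPM (7.93 to 11.8). It was thus lowest in Hep3B and highest in Huh7-C, and in each line the stem cells were above the parent cells. In TPM, only the intervals of the neighbours Huh7 and Huh7-C overlapped. In CPM the order was the same, with 2.87 for Hep3B, 7.37 for Hep3B-C, 12.2 for Huh7 and 25.7 for Huh7-C. On that scale the interval of Hep3B (0.933 to 6.71) overlapped that of Hep3B-C (from 5.26 upward), which in turn overlapped that of Huh7 (9.50 to 15.4), while Huh7-C (21.0 to 31.2) lay above all 3.

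**Figure D1:**
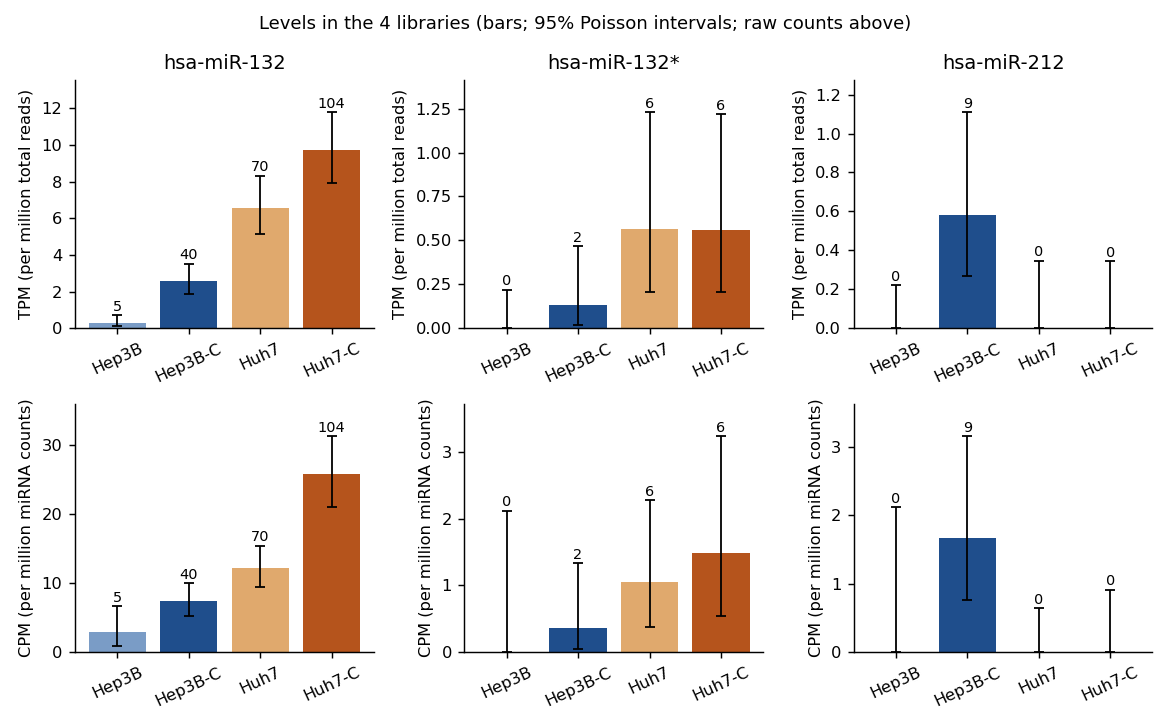
Levels of hsa-miR-132, hsa-miR-132* and hsa-miR-212 (columns) in each library, in TPM (upper row) and CPM (lower row). Bars give the level, lines the 95% Poisson interval and the numbers on top the raw counts; hsa-miR-132 climbs from 5 counts in Hep3B to 104 in Huh7-C, whereas hsa-miR-212 has counts in Hep3B-C alone.

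Even where it was highest, hsa-miR-132 was an intermediate miRNA. Its rank was 422 of 674 detected miRNAs for Hep3B (where 16 miRNAs had 5 counts), 304 of 773 for Hep3B-C, 224 of 712 for Huh7 and 166 of 664 for Huh7-C. It was above 35.2% of the detected miRNAs in Hep3B and above 75.0% of them in Huh7-C. These ranks do not use the library size.

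In the Hep3B pair, hsa-miR-132 was higher in the HCSCs. The log2 ratio of TPM, with 0.5 counts added to each count, was 3.0 (95% exact binomial interval of the counts 1.78 to 4.82), an 8.70-fold difference before the addition. The ratio rests on 5 counts in Hep3B. Of the 475 miRNAs that reached 10 counts in Hep3B or Hep3B-C, 66.5% were at least 2-fold higher in Hep3B-C in TPM, so passing this fold did not set hsa-miR-132 apart. In CPM its log2 ratio was 1.24 (interval 0.02 to 3.06), and 19.4% of the miRNAs were at least 2-fold higher. On either scale its ratio was above those of 83.6% of the 475 miRNAs, whose median was 1.42 in TPM and -0.34 in CPM.

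In the Huh7 pair, hsa-miR-132 was again higher in the HCSCs, by less. The log2 ratio of TPM was 0.56 (interval 0.11 to 1.02), a 1.47-fold difference that did not pass 2-fold, as 7.42% of the 431 miRNAs did in the direction of Huh7-C. In CPM the log2 ratio was 1.07 (interval 0.63 to 1.53), past 2-fold like 15.3% of the miRNAs. Most miRNAs of this pair moved the other way in TPM, with a median log2 ratio of -0.66, and hsa-miR-132 was above 86.3% of them. Among the 359 miRNAs that reached 10 counts in a library of each pair, 101 (28.1%) were higher in both HCSCs in TPM and 69 (19.2%) in CPM. Hsa-miR-132 was among them on both scales.

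**Figure D2:**
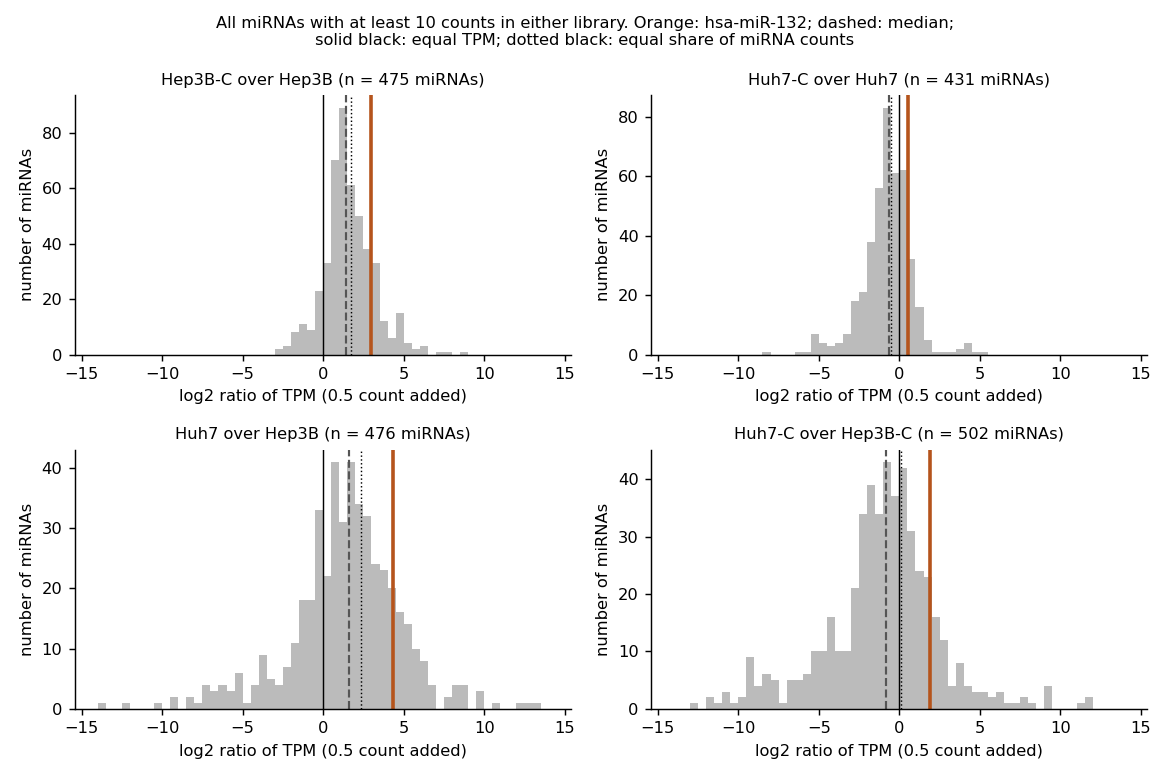
Distribution of log2 ratios of TPM (x axis) over all miRNAs reaching 10 counts in one of the libraries compared (y axis, number of miRNAs), for the 4 comparisons. The orange line marks hsa-miR-132 (3.0, 0.56, 4.34 and 1.89), the dashed line the median (1.42, -0.66, 1.59 and -0.82), the solid black line equal TPM and the dotted black line equal share of miRNA counts; the orange line lies to the right of the other lines in every panel.

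Huh7 cells held more hsa-miR-132 than Hep3B cells both as HCC cells and as HCSCs. Huh7 was above Hep3B by a log2 ratio of 4.34 (interval 3.18 to 6.13) in TPM and 1.96 (0.79 to 3.75) in CPM. The share of the 476 miRNAs at least 2-fold higher in Huh7 was 57.8% on the first scale and 24.8% on the second. Between the HCSC lines, where the scales differed little, Huh7-C was above Hep3B-C by 1.89 (1.37 to 2.47) in TPM and by 1.79 (1.26 to 2.37) in CPM. At least 2-fold higher in Huh7-C were 22.7% of the 502 miRNAs in TPM and 21.9% in CPM. Hsa-miR-132 exceeded 83.4% of the miRNAs in the first of these comparisons and 86.1% in the second.

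Hsa-miR-212 had 9 counts in Hep3B-C and 0 in Hep3B, Huh7 and Huh7-C. Its level in Hep3B-C was 0.583 TPM (95% Poisson interval 0.267 to 1.11), above 38.2% of the miRNAs detected in this library. A count of 0 was taken as at most 3 counts, the one-sided 95% limit, which equals 0.179 TPM in Hep3B, 0.282 in Huh7 and 0.280 in Huh7-C (the two-sided Poisson intervals end at 0.220, 0.347 and 0.344 TPM). Against 3 counts, the 9 counts of Hep3B-C were at least 3.26-fold higher than Hep3B and at least 2.08-fold higher than Huh7-C in TPM, without the counting error of the 9 counts. With that error, the exact binomial interval of the log2 ratio began at 1.10 for Hep3B-C over Hep3B and ended at -0.45 for Huh7-C over Hep3B-C. In CPM the bound against Huh7-C was 2.23-fold, and the interval ended at -0.56. In CPM a difference in the Hep3B pair was not detectable at this depth, since 3 counts in Hep3B equal 1.72 CPM, above the 1.66 CPM of Hep3B-C, and the interval began at -0.66. In the Huh7 pair both libraries were at 0 and no ratio can be given. Hsa-miR-212 did not reach 10 counts in any library and is thus outside the shares of miRNAs past 2-fold given for each comparison.

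Hep3B-C also held the most miRNAs seen in a single library. Of the 1733 miRNAs, 77 had counts in Hep3B-C alone, against 25 for Hep3B, 38 for Huh7 and 23 for Huh7-C. The depths differed, with 5430195 miRNA counts for Hep3B-C, 1739278 for Hep3B, 5741567 for Huh7 and 4045199 for Huh7-C. The part of depth in these numbers was not tested. The 77 had a median of 2 counts, and 72 of them had fewer than the 9 of hsa-miR-212. The 4 with more, named here after their values were seen, were hsa-miR-337-3p (20 counts), hsa-miR-4798-5p (14), hsa-miR-655 (11) and hsa-miR-378e (10).

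The balance of the 2 guides within a library does not depend on the library size. Hsa-miR-212 made up 9 of the 49 counts of the pair in Hep3B-C, or 18.4% (95% Clopper-Pearson interval 8.76% to 32.0%). In Huh7 it made up 0 of 70, which allows a share of up to 4.29% at the limit of 3 counts, and in Huh7-C 0 of 104, which allows up to 2.88% at that limit. The two-sided Clopper-Pearson intervals reached further, to 5.13% and 3.48%, and both ended below the lower end in Hep3B-C. In Hep3B it was 0 of 5, with an interval up to 52.2%, so the share in Hep3B could not be told from any of the others. At the balance of Hep3B-C, the hsa-miR-132 counts would go with 15.8 counts of hsa-miR-212 in Huh7, 23.4 in Huh7-C and 1.12 in Hep3B. Of the HCSCs, Hep3B-C thus had the lower level of hsa-miR-132 and was the one in which hsa-miR-212 was counted.

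**Figure D3:**
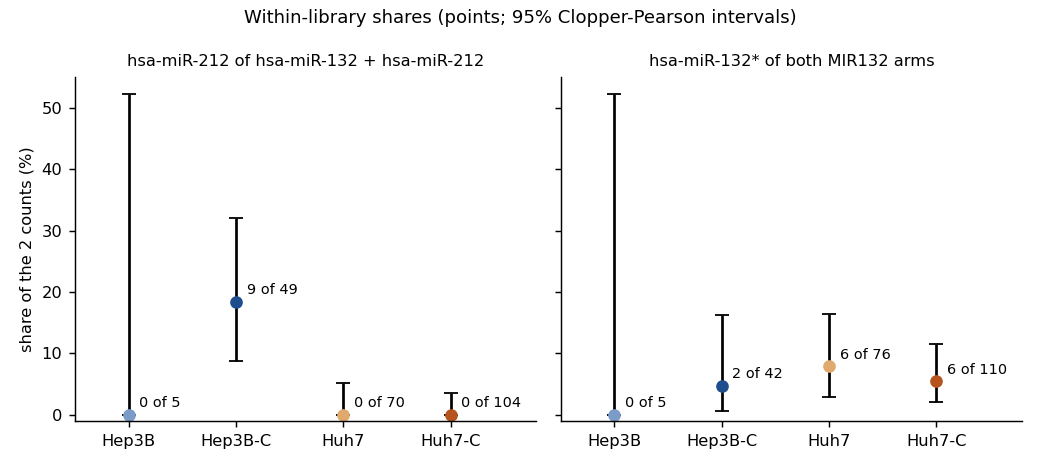
Share of hsa-miR-212 in the summed counts of both guides (left) and of hsa-miR-132* in the summed counts of both MIR132 arms (right), in percent, for each library. Points are shares with the counts beside them and lines are 95% Clopper-Pearson intervals; on the left Hep3B-C (18.4%) lies clear of Huh7 and Huh7-C, whereas on the right the intervals of all libraries overlap.

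Other pairs of miRNAs that share a seed and a cluster show how far such a balance varied among these libraries. For hsa-miR-221 and hsa-miR-222, a pair studied for promoting the cell cycle, hsa-miR-222 made up 21.1% of the pair for Hep3B and 29.2% for Hep3B-C, and 27.6% for Huh7 and 39.1% for Huh7-C. Hsa-miR-20a made up between 56.6% (Hep3B) and 76.7% (Huh7) of its pair with hsa-miR-17, both from the oncogenic miR-17-92 cluster. The share of hsa-miR-93 in its pair with hsa-miR-106b lay between 82.1% (Huh7) and 94.2% (Hep3B-C), and that of hsa-miR-301b in its pair with hsa-miR-130b between 0.598% (Hep3B) and 1.03% (Hep3B-C). Over the 4 libraries, the log2 ratio within these pairs spanned 1.26 for hsa-miR-221 and hsa-miR-222, 1.33 for hsa-miR-17 and hsa-miR-20a, 1.82 for hsa-miR-106b and hsa-miR-93 and 0.79 for hsa-miR-130b and hsa-miR-301b. Hsa-miR-429 fell from 19.2% of its pair with hsa-miR-200b in Hep3B to 9.69% in Hep3B-C. That pair had 0 counts in Huh7 and 2 in Huh7-C. For the guides of MIR132 and MIR212 the ratio could be computed in Hep3B-C alone, where the log2 ratio of hsa-miR-212 to hsa-miR-132 was -2.15.

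The opposite arm of MIR132 was rare throughout. Hsa-miR-132* had 0 counts in Hep3B and 2 in Hep3B-C, with 6 each in Huh7 and Huh7-C. Its share of both arms was 4.76% for Hep3B-C (interval 0.582% to 16.2%), 7.89% for Huh7 (2.95% to 16.4%) and 5.45% for Huh7-C (2.03% to 11.5%), and these intervals overlapped. Its level did not differ detectably between Huh7 (0.565 TPM) and Huh7-C (0.560 TPM), with a log2 ratio of -0.01 (interval -1.92 to 1.89) in TPM and 0.51 (-1.40 to 2.41) in CPM.

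Within 1 Mb of MIR132, the annotation lists MIR22, MIR212, MIR6776 and MIR1253. MIR22, whose product is found in many tissues, starts 336005 bases away on the same strand, and neither of its arms followed hsa-miR-132 in the Huh7 pair. For hsa-miR-22, Hep3B had 420 counts and Hep3B-C 766, whereas Huh7 had 3128 and Huh7-C 524. Its log2 ratio in the Huh7 pair was -2.59 (interval -2.73 to -2.46) in TPM, and its ratio in the Hep3B pair changed sign with the scale, from 0.99 in TPM to -0.78 in CPM. Hsa-miR-22* was lower in the HCSCs of both pairs, with log2 ratios of TPM of -1.01 (Hep3B pair) and -5.08 (Huh7 pair). Hsa-miR-1253 had at most 1 count in a library, and no row was matched to MIR6776 by name.

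Because miR-132 and miR-212 are best known from neurons, 13 neuron-enriched miRNAs were examined beside them. Their summed level followed the order of hsa-miR-132, with 57.4 TPM for Hep3B, 396 for Hep3B-C, 1391 for Huh7 and 1499 for Huh7-C, and with 554, 1125, 2573 and 3970 CPM. Most of this sum came from hsa-miR-9 and hsa-miR-7. Hsa-miR-9, a regulator of neural progenitors, had the order of hsa-miR-132 on both scales and went from 154 counts in Hep3B to 844 in Hep3B-C and from 9765 in Huh7 to 11349 in Huh7-C. Hsa-miR-7, a miRNA of neurons and endocrine cells, had 365, 4578, 4373 and 4375 counts in the same order of libraries. It was lowest in Hep3B on both scales but departed from the order elsewhere, with 412 TPM for Huh7 against 408 for Huh7-C, and 843 CPM for Hep3B-C against 762 for Huh7. Hsa-miR-9*, named after its values were seen, had 3, 11, 80 and 62 counts, which gives the order of hsa-miR-132 in CPM (1.72, 2.03, 13.9 and 15.3) but not in TPM, where Huh7-C (5.79) was below Huh7 (7.53). Hsa-miR-128 had 273, 515, 525 and 268 counts, and hsa-miR-218, known from motor neurons, had 158, 142, 1 and 0. Also named after their values were seen, hsa-miR-137 had 2, 0, 20 and 0 counts and hsa-miR-138 had 8, 6, 1 and 1. Neither had the order of hsa-miR-132 on either scale. Hsa-miR-129-5p, hsa-miR-153 and hsa-miR-219-5p had at most 5 counts in a library. Hsa-miR-124, among the most abundant miRNAs of mature neurons, had 0 counts in every library, as did hsa-miR-124* and hsa-miR-129-3p.

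Counted as a list, 4 of the 5 neuron-enriched miRNAs that reached 10 counts in the Hep3B pair were at least 2-fold higher in Hep3B-C in TPM, near the 66.5% of all 475 miRNAs, with a median log2 ratio of 1.84 (1.42 over all). In CPM 1 of 5 was higher (19.4% over all) and 1 lower, and the median was 0.07 (-0.34 over all). In the Huh7 pair 0 of 5 were at least 2-fold higher on either scale (7.42% over all in TPM and 15.3% in CPM) and 1 was lower, with a median of -0.38 (-0.66 over all) in TPM and 0.14 (-0.15 over all) in CPM. Between the HCC lines, 5 of 6 were at least 2-fold higher in Huh7 in TPM (57.8% over all), with a median of 3.97 (1.59 over all), and 4 of 6 in CPM (24.8% over all), with a median of 1.59 (-0.79 over all); 1 was lower on both scales. Between the HCSC lines, 2 of 5 were higher in Huh7-C on both scales (22.7% over all in TPM and 21.9% in CPM) and 1 was lower, with medians of 0.46 in TPM (-0.82 over all) and 0.36 in CPM (-0.92 over all). With 5 or 6 members, nothing particular to the list can be read from these counts.

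Markers of other cells in which the pair is expressed were also measured. The 2 endothelial arms, hsa-miR-126 and hsa-miR-126*, were found in every library and summed to 52.2 TPM for Hep3B, 103 for Hep3B-C, 208 for Huh7 and 159 for Huh7-C. In CPM the sums were 504, 294, 385 and 421, so that Hep3B was the lowest library on the first scale and the highest on the second. Their median log2 ratio in the Hep3B pair was 0.88 in TPM and -0.88 in CPM. Of the 5 mesenchymal miRNAs, 3 were found in each Hep3B library and 4 in each Huh7 library, and they summed to 35.3, 115, 11.6 and 2.99 TPM (341, 327, 21.4 and 7.91 CPM). In Hep3B and Hep3B-C these sums were set mainly by hsa-miR-143, a miRNA of smooth muscle, with 427, 1706, 33 and 13 counts. Hsa-miR-199a-3p had 165, 64, 72 and 13 counts, more than hsa-miR-143 in Huh7 and as many in Huh7-C. The members did not move as one. Hsa-miR-199a-3p was lower in the HCSCs of both pairs, with log2 ratios of TPM of -1.24 (Hep3B pair) and -2.44 (Huh7 pair). In CPM these were -3.00 and -1.92. Hsa-miR-143 was higher in Hep3B-C than in Hep3B (2.12 in TPM and 0.35 in CPM). Hsa-miR-199a-5p had 1 count in Hep3B against 17 in Huh7 (log2 ratio 4.20 in TPM, interval 2.07 to 10.13, and 1.82 in CPM, interval -0.31 to 7.75), and hsa-miR-145 and hsa-miR-214 had at most 5 counts in a library. Of the 7 blood cell miRNAs, Hep3B and Huh7 each held 4, Huh7-C 3 and Hep3B-C 1, and over Hep3B, Hep3B-C, Huh7 and Huh7-C there were sums of 0.477, 0.0648, 75.3 and 1.03 TPM (4.60, 0.184, 139 and 2.72 CPM). In Huh7 this sum came mainly from hsa-miR-451, the miRNA of red blood cells, with 773 counts against 2 in Huh7-C and 1 in each Hep3B library. Hsa-miR-142-3p, a miRNA of white blood cells, had 4, 0, 20 and 3 counts, hsa-miR-144 and hsa-miR-150 had 0 in every library, and the other 3 had at most 6. All 4 libraries came from cultured hepatoma cells and the stem-like cells grown from them, so these counts do not show that other cell types were present. Any relation of these markers to the level of hsa-miR-132 was not tested.

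Likeness to hsa-miR-132 was measured as the Euclidean distance between log2 levels over the 4 libraries, each centred on its own mean, among the 265 miRNAs that reached 10 counts in every library. Hsa-miR-132 itself, with 5 counts in Hep3B, would not pass that minimum. The counting error of those 5 counts was not carried into the distances, so the ranking may not hold. The nearest was hsa-miR-105, a miRNA of chromosome X known from germ cells and tumours, at a distance of 0.543, with 33 counts (Hep3B), 250 (Hep3B-C), 593 (Huh7) and 977 (Huh7-C). Its log2 ratios of TPM were 3.02 (Hep3B pair) and 0.71 (Huh7 pair), near the 3.0 and 0.56 of hsa-miR-132. That nearness follows from choosing it by these same levels. Hsa-miR-3158-3p followed at 0.764, with 17, 76, 251 and 376 counts. The next were hsa-miR-30e* at a distance of 0.999, hsa-miR-140-5p at 1.02 and hsa-miR-7 at 1.02. Unlike hsa-miR-132, these 3 were not higher in Huh7-C than in Huh7 in TPM (for hsa-miR-30e*, 3875 against 4516 TPM), although in CPM hsa-miR-30e* and hsa-miR-7 were.

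**Figure D4:**
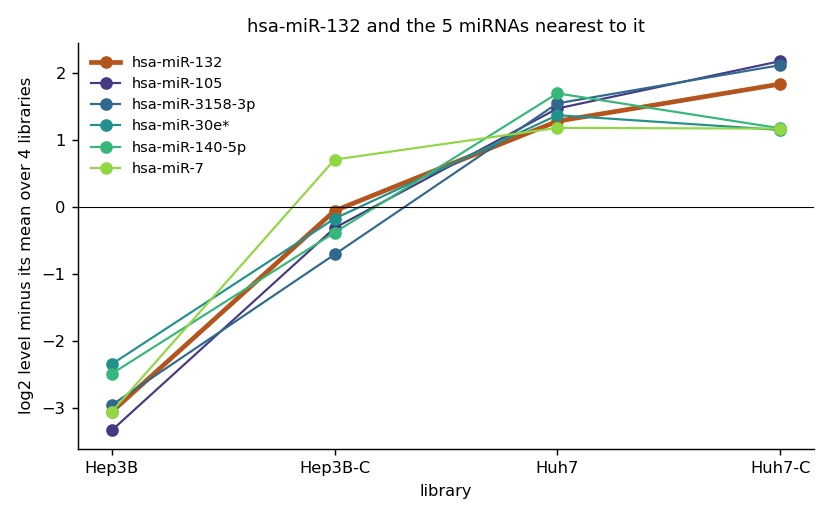
Log2 level of hsa-miR-132 (thick orange line) and of the 5 miRNAs nearest to it, each minus its own mean over the 4 libraries (y axis), by library (x axis); lines only join the points of 1 miRNA. Hsa-miR-105 and hsa-miR-3158-3p are higher in each library than in the one to its left, as hsa-miR-132 is, whereas in TPM, the scale plotted, the other 3 are not higher in Huh7-C than in Huh7.

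For hsa-miR-212 the same measure depends on the 0.5 counts that stand for its 0 counts. The 5 nearest miRNAs were hsa-miR-200c (distance 0.882), hsa-miR-141 (1.05), hsa-miR-375 (1.23), hsa-miR-15b (1.25) and hsa-miR-320b (1.29). All 5 were highest in Hep3B-C, as hsa-miR-200c was with 329 TPM against 29.7 in Huh7 and 34.8 in Huh7-C. That peak follows from the way they were chosen, since Hep3B-C was the only library with counts of hsa-miR-212. Hsa-miR-200c and hsa-miR-141, known for keeping cells epithelial, come from 1 cluster. None of the 5 nearest to hsa-miR-212 was among the 5 nearest to hsa-miR-132. With 5 taken for each from the same 265 miRNAs, no shared member is also the usual outcome for unrelated miRNAs. Nothing particular to the pair can therefore be read from it.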

How the data were processed

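Small RNA of 4 cell populations was sequenced on an Illumina Genome Analyzer II, 1 library each. The authors filtered out contaminant reads, redundant reads and those under 18 nt, mapped the rest to NCBI Build 36.1 with SOAP, set aside other small RNA classes and assigned what remained to miRBase release 17. The authors deposited raw counts for 1733 mature miRNAs per library, without normalization. Aligner versions and allowed mismatches are not given in the sources used here.

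TPM was computed from these counts and the total reads that the study states per library, and CPM from the counts and their sum in each library. The count of 1 read was worth 0.0596 to 0.0941 TPM. Levels carry 95% exact Poisson intervals, shares Clopper-Pearson intervals and log2 ratios exact binomial intervals of a pair of counts given their sum. Ratios used 0.5 added counts. A count of 0 was set to 3 counts (the one-sided 95% limit) for bounds. Since there were no replicates and the members and lists were chosen with earlier results of these data known, no test was run. The miRNAs named are the pair, hsa-miR-132*, the neighbours within 1 Mb, the 5 nearest to each member and the pairs of shared seed. Up to 4 of each list were named by total count. Some other list members, and some miRNAs seen in Hep3B-C alone, were named after their values were seen or for having few or 0 counts. The ratio intervals were run on simulated Poisson counts, which is the model they assume. That run therefore cannot show whether they hold for PCR reads or between cultures. Alternatives were total miRNA counts (all, or without the 5 most abundant miRNAs), edgeR's TMM or DESeq2 size factors as library sizes, 0 or 5 added counts, and other count minimums. Promoters were not used here. Positions and sequences come from GENCODE release 29 and RefSeq by name, with no conversion between builds. Python 3.11.15 (numpy 2.4.6, scipy 1.17.1, pandas 2.3.3, matplotlib 3.10.9) and R 4.3.3 (edgeR 4.0.16, DESeq2 1.42.0) were used.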

Additional observations from a re-analysis of the deposited data

How the results depend on the processing

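Hsa-miR-132 kept its direction in all 4 comparisons under every alternative tried. In the Hep3B pair its log2 ratio was 1.24 with total miRNA counts as library sizes, 1.59 with TMM library sizes and 1.52 with total miRNA counts without the 5 most abundant miRNAs. In the Huh7 pair it was 1.07 with total miRNA counts, 1.13 with DESeq2 size factors and 1.29 without the 5 most abundant miRNAs, all past 2-fold, whereas it was 0.87 with TMM and 0.56 in TPM, both short of 2-fold. Between the HCC lines it was 1.96 with total miRNA counts, 2.88 with TMM, 2.89 with DESeq2 size factors and 2.66 without the 5 most abundant miRNAs. Between the HCSC lines it stayed within its counting interval. For hsa-miR-212 in the Hep3B pair, 0.5 added counts gave a log2 ratio of 4.37 and 5 added counts 1.61, so that its size rests on the added count; neither value is a bound, and without added counts there is none. The share of miRNAs past 2-fold in either direction of the Hep3B pair was 71.6% in TPM, 44.4% with total miRNA counts, 43.2% with TMM and 44.0% with DESeq2 size factors. Of the 5 miRNAs nearest to hsa-miR-132, 3 remained with a minimum of 50 counts, which leaves fewer miRNAs to choose from, and 1 when Pearson r replaced the distance. The distance itself cannot change with the library size. No paired test was run, since the miRNAs were chosen on these counts: the ratios are given within each line instead, and a model of all 4 libraries with the line as a block, which would keep 1 residual degree of freedom, was not fitted. With 1 library per population, none could be left out. The 5 counts of hsa-miR-132 in Hep3B and the 9 of hsa-miR-212 in Hep3B-C limit every ratio that uses them.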
